A study of Mus musculus with 12 samples.

Results

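Adult ventricular cardiomyocytes were compared with embryonic fibroblasts over all genes by RNA sequencing of C57BL/6 mouse cells. The comparison uses 6 of the 12 libraries of the series, chosen by the group in the sample labels: 3 of ventricular cardiomyocytes isolated from adult mice (CM) and 3 of mouse embryonic fibroblasts kept for 3 weeks after an empty vector (E). The study asks how far such fibroblasts can be moved towards heart muscle by Gata4, Hand2, Mef2c and Tbx5, alone or with Akt, and CM and E are the ends of that scale. The other 6 libraries, fibroblasts that received these factors and were sorted on green fluorescent protein under the αMHC promoter, entered only the shared scaling, the filter on low counts and the estimate of spread. The labels name no sort for CM or E, no age of the adult mice beyond that word and no separate animals or cultures behind libraries 1, 2 and 3, so the p-values measure only the spread between these libraries. CM and E differ in cell type, age and time in culture together, and what belongs to each cannot be told apart. The labels give no sex, but the groups also differ in sex-linked transcripts, given below, and a part of sex cannot be separated either. In RNA from many cells, fewer cells of a type and less RNA per cell cannot be told apart either.

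A cardiomyocyte of the adult ventricle is a large, striated muscle cell that has left the cell cycle. Its sarcomeres slide actin over myosin when calcium leaves the sarcoplasmic reticulum through the ryanodine receptor and binds troponin C, and relax when the pump Serca2 returns the calcium. Most of its ATP comes from fatty acids burnt in densely packed mitochondria, and its intercalated discs join it electrically and mechanically to its neighbours. An embryonic fibroblast is a proliferating connective tissue cell that crawls on stress fibres of non-muscle actin and myosin, and secretes and crosslinks collagen and other matrix proteins. Hox genes, which carry the position of a cell along the body and limb axes, stay active in many fibroblasts.

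Marker genes followed the labels. Myh6, Myl2, Myl3, Tnni3, Tnnt2, Actc1, Ryr2 and Pln, all genes of the contractile or calcium machinery, summed to 36302, 30042 and 58815 reads scaled to a common library total (CPM) in CM 1, 2 and 3 and to 9.67, 8.62 and 18.3 CPM in E, and all 8 were called higher. Col1a1, Col1a2, Col3a1, Fn1, Postn, Pdgfrb, Thy1 and S100a4, used as fibroblast markers, summed to 638, 659.6 and 725 CPM in CM and 22012, 17804 and 13249 CPM in E, and all 8 were called lower. Of these, Pdgfrb overlapped between the groups (log2 -1.86) and was not called without CM 1, CM 2 or E 1 (adjusted p = 0.0819, 0.0709 and 0.135, log2 -1.24 without E 1). Reads assigned to genes numbered 15952646, 13573883 and 5120230 in CM and 33552138, 15971154 and 18779350 in E, and E was the more deeply sequenced group. Values of a gene below are always given in the order of libraries 1, 2 and 3, in CPM after TMM scaling unless stated. All adjusted p-values are from edgeR (quasi-likelihood test), adjusted by Benjamini-Hochberg over all genes tested, and a gene is called at 0.05. Differences are log2 values of CM minus E.

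Libraries of a group differed by the GC content of the genes. Among the fifth of genes with the highest GC content (above 54.7%), the median deviation from the group mean on the log2 scale was 1.08 in CM 3, -0.76 in CM 2 and -0.31 in CM 1, and 0.83 in E 1, -0.01 in E 2 and -0.79 in E 3. Across 14982 genes the Spearman correlation of deviation with GC content was 0.72 in CM 3 and -0.71 in CM 2, a description of these libraries in which genes are not independent. CM 3 also had the fewest reads and the lowest share of reads from the mitochondrial genome. Across genes, log2 CPM correlated at r = 0.975 between CM 1 and CM 2, at 0.900 between CM 1 and CM 3 and at 0.870 between CM 2 and CM 3. The part of this trend in single results was not tested. The fold of the 199 called genes named in the text moved by over 1.5 times for 42 without CM 3, 40 without E 1, 12 without E 3 and at most 5 without any other library, and values without CM 3 are given for some of them.

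**Figure D1:**
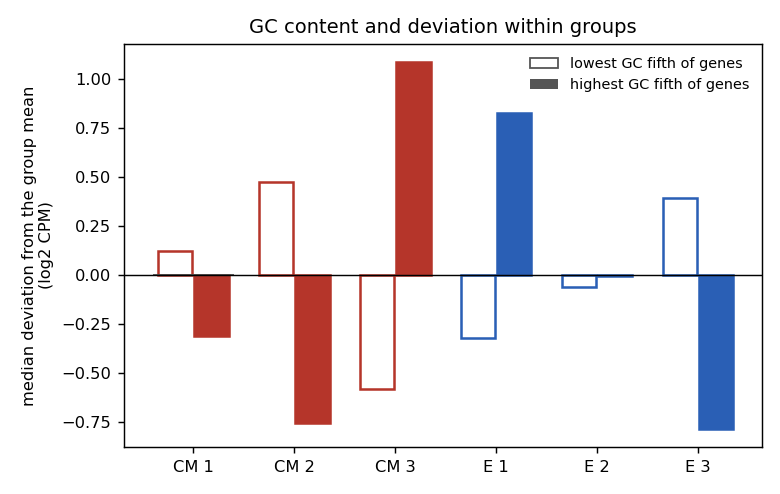
Median deviation of genes from their group mean (log2 CPM, y axis) in each CM (red) and E (blue) library (x axis), for the fifth of genes with the lowest GC content (open bars) and the fifth with the highest (filled bars). The filled bars reach 1.08 in CM 3 and 0.83 in E 1 and fall to -0.76 in CM 2 and -0.79 in E 3.

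Of 15059 genes tested, 6319 (42.0%) were called, 2933 (19.5%) higher and 3386 (22.5%) lower in CM. At least 2-fold, 2899 genes (19.3%) rose and 3298 (21.9%) fell, and at least 32-fold, 768 (5.10%) rose and 484 (3.21%) fell. The groups did not overlap in 8617 genes (57.2%). Every CM library lay above every E library for 3703 (24.6%) and below for 4914 (32.6%). The median log2 difference of all genes was -0.26 with TMM scaling, 0.14 with DESeq2's size factors and -1.25 when scaled to total counts. List medians below are to be read against -0.26, and list counts against the 19.5% higher and 22.5% lower of all genes. Of the calls 46.4% were higher in CM with TMM, 58.3% with DESeq2's size factors and 22.7% with total counts. Without CM 3, 6391 genes were called, 2906 higher and 3485 lower. No named gene that was called changed direction under any of these scalings. Of 13097 protein-coding genes 2600 rose and 3012 fell, and of 794 long non-coding genes 181 rose and 155 fell.

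**Figure D2:**
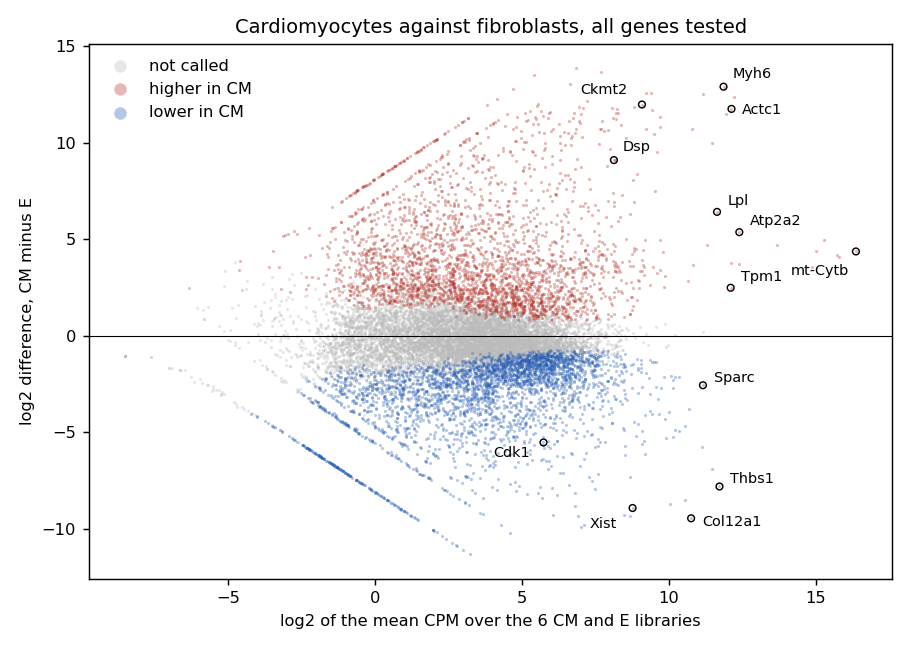
Log2 difference between CM and E (y axis) against the log2 of the mean CPM over the 6 libraries (x axis) for the genes tested, without 17 that have no read in these libraries. Red points are called higher in CM, blue points lower, grey points not called, and circles mark named genes, from Myh6 at 12.89 to Col12a1 at -9.46.

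The most abundant nuclear transcripts per kilobase of exon were different genes in the groups. In CM the leading protein-coding genes were Actc1 with 5535 CPM per kb, the ventricular light chain Myl2 with 4838, the oxygen store Mb with 3066, the Serca2 inhibitor Pln with 2883, the mitochondrial ADP/ATP carrier Slc25a4 with 2064 and Atp2a2, which encodes Serca2, with 1730.2. The same genes stood at 1.62, 0.94, 0.519, 1.01, 79.2 and 42.1 CPM per kb in E. In E the leading genes were S100a4 with 1384 CPM per kb, the elongation factor Eef1a1 with 1230.2, the galectin Lgals1 with 1229, Thbs1 with 1106 and Sparc with 1033. In CM these had 8.84, 87.9, 72.3, 4.91 and 174 CPM per kb. Eef1a1 and Lgals1 were named after their values were seen, and Lgals1 overlapped, with 13.5, 12.6 and 169.9 CPM in CM and 2656, 554 and 119.8 in E, so that its place rests on E 1. Its log2 difference was -4.10, -6.40 without CM 3 and -2.34 without E 1, where it was not called (adjusted p = 0.0622). Eef1a1 had 459, 69.8 and 129 CPM in CM and 2402, 5865 and 935 in E (log2 difference -3.81, SE 0.73, adjusted p = 0.000694). Its log2 difference was -4.92 without CM 1 and -2.955 without E 2. Of the S100a4 exon bases 51.7% are shared with another gene on the same strand, so its count is uncertain. The Eef1a1 paralogue Eef1a2, the elongation factor of muscle and neurons, had 67.3, 52.9 and 574 CPM in CM against 1 read in the 3 E libraries together (adjusted p = 1.92e-06). By the reads counted, the elongation factor genes therefore differed in opposite directions. Reads that align to several places were left out, and their part in these values was not tested.

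Genes for the myosins, actins, troponins and tropomyosins changed in both directions, the cardiac isoforms rising and most non-muscle and smooth muscle isoforms falling. Of 31 listed and 28 tested, 15 rose and 9 fell, with a median log2 difference of 2.56. Myh6, the main adult myosin heavy chain (mm10, chromosome 14, 54941921 to 54966927, minus strand), had 2593, 2268 and 17409.9 CPM in CM and 0.519, 0.879 and 1.56 in E (log2 difference 12.89, SE 1.06, adjusted p = 2.8e-07). CM 3 stood far above CM 1 and CM 2, all CM libraries lay far above E, and without CM 3 the log2 difference was 11.30. Myh7, the slow heavy chain (chromosome 14, 54970684 to 54994626, minus strand), was even across CM at 249, 239 and 242 CPM, against 0.0335, 0.0338 and 0.122 CPM in E (log2 difference 11.84, SE 0.56, adjusted p = 1.87e-09). Per kilobase Myh6 had 1104 CPM in CM and Myh7 28.3. Actc1, cardiac actin (chromosome 2, 114047282 to 114053548, minus strand), had 10463, 8447 and 7959 CPM in CM and 1.19, 1.86 and 4.83 in E (log2 difference 11.74, SE 0.63, adjusted p = 4.23e-09), level within CM and apart from E. Myl2 had 9874, 5125 and 13306 CPM in CM and 1.17, 1.45 and 2.87 in E (log2 difference 12.33, SE 0.86, adjusted p = 5.19e-08), again without overlap. Skeletal actin, Acta1, rested on CM 3. It had 8.4, 14.9 and 107 CPM in CM and 10.6, 5.61 and 4.71 in E, the groups overlapped, and the log2 difference fell from 2.63 (adjusted p = 0.0245) to 0.74 (adjusted p = 0.371) without that library, with adjusted p = 0.09 without E 2 and 0.0814 without E 3.

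Cardiac regulators of the thin filament rose. Tnnt2, which binds tropomyosin, had 2439.5, 1169.8 and 6920.4 CPM in CM and 3.65, 1.35 and 1.28 in E (log2 difference 10.68, SE 0.79, adjusted p = 9.71e-08). Tnnc1, the calcium sensor, had 908, 363 and 2283 CPM in CM and 0.87, 0.71 and 0.52 in E (log2 difference 10.69, SE 0.77, adjusted p = 7.12e-08). Tnni3, the inhibitory subunit, had 339, 412 and 4231 CPM in CM and 0.937, 0.372 and 0.55 in E (log2 difference 11.33, SE 1.11, adjusted p = 1.61e-06), with a log2 difference of 9.19 without CM 3. All 3 genes were apart between the groups in every library. Of the skeletal troponins, Tnnt1 was higher (log2 difference 5.29, SE 1.06, adjusted p = 0.000898; 3.83 without CM 3 and 6.86 without E 1), Tnnt3 did not pass (log2 difference 0.94), and Tnni1, Tnni2 and Tnnc2 had too few reads to test. Tpm1, which muscle and non-muscle cells share, had 6104, 6722 and 9514 CPM in CM and 1579.7, 1209.8 and 1213 in E, a 5.58-fold rise (adjusted p = 1.43e-05), while Tpm2, Tpm3 and Tpm4 fell, with log2 differences of -3.44, -1.98 and -2.95. Tpm4 had 124, 145 and 70.3 CPM in CM and 605, 782 and 1231 in E, with no overlap.

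Among the isoforms of motile and smooth muscle cells, the non-muscle myosins Myh9 and Myh10 fell. Myh10 had 19.5, 20.4 and 30.6 CPM in CM and 424, 269 and 263 in E (log2 difference -3.76, SE 0.38, adjusted p = 2.28e-06). Myh9 had 35.6, 27.8 and 102 CPM in CM and 603, 420.2 and 228 in E (log2 difference -2.92, SE 0.55, adjusted p = 0.00055). In Myh10 and Myh9 each CM library was below each E library. Smooth muscle actin, Acta2, had 90.6, 52.1 and 232 CPM in CM and 3331, 2019.8 and 414 in E (log2 difference -3.95, SE 0.65, adjusted p = 0.000198). Cytoplasmic actin, Actb, had 154, 104 and 368 CPM in CM and 2110.4, 1321 and 524 in E (log2 difference -2.66, SE 0.52, adjusted p = 0.000813). For both, CM 3 and E 3 came closest to each other without overlapping. Myl6 and Myl9, light chains of non-muscle and smooth muscle myosin, were called lower with overlapping groups (log2 -2.37 and -3.14, and for Myl9 -4.68 without CM 3 and -2.23 without E 1), Myl6 not without CM 1, CM 2 or E 1 (adjusted p = 0.07, 0.0687 and 0.204, log2 -1.25 without E 1), and Myh11, Myl12a and Actg1 did not pass (log2 -0.33, 0.71 and -0.43). The atrial light chains Myl7 and Myl4 rose, Myl7 with 24.8, 10.9 and 133 CPM in CM and 0.1, 0 and 0 in E and Myl4 with 20.4, 13.9 and 107 CPM in CM and 1.04, 0.608 and 0.306 in E, with every CM library above E.

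**Figure D3:**
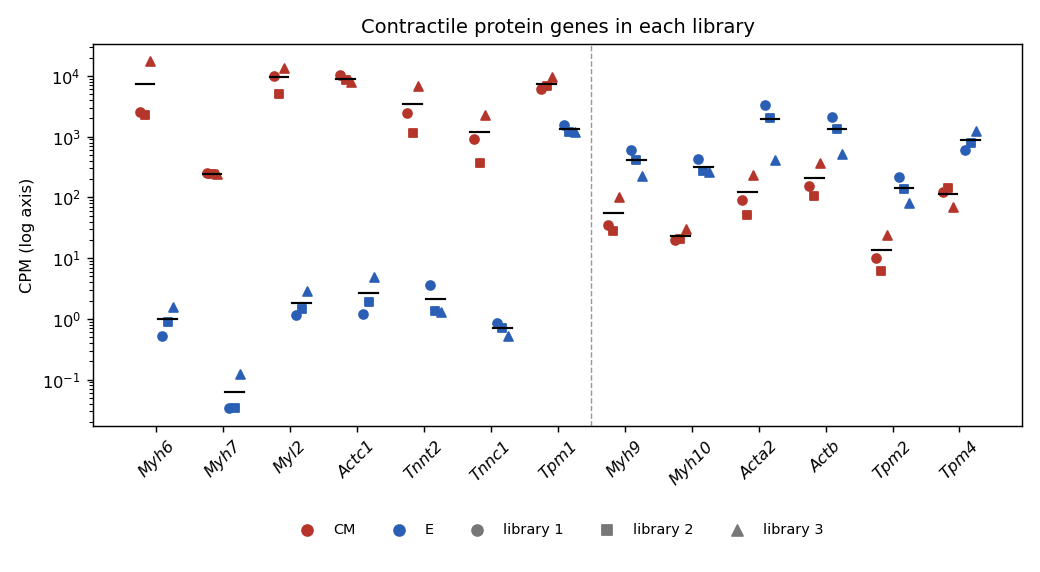
CPM (y axis, log scale) of contractile protein genes in each CM (red) and E (blue) library, with symbols for libraries 1 to 3 and a black bar at each group mean. Left of the dashed line CM lies above E, with Tpm1 at 6104 to 9514 CPM and Myh7 at 239 to 249 CPM in CM. Right of it, from Myh9 to Tpm4, CM lies below E.

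Some of these genes hold a CArG box, the sequence bound by serum response factor, in the 250 bases before the RefSeq start. Of 33 promoters of the isoform genes 7 held one on either strand, against 1.47% of all 32851 RefSeq promoters, and the genes with one fell (Myl6, Myl9) as well as rose (Actc1, Acta1, Myl3, Myl7) or did not pass (Actg1). A MEF2 site, searched as the core bound by the Mef2 factors, was in 0 of the 33. In the Z-disc list 7 of 22 promoters held a MEF2 site, against 2.92% of all promoters and 1.82% of those of tested genes. They belong to 6 genes, of which Filip1l fell and the others rose. Among genes that rose at least 32-fold 51 of 663 promoters (7.69%) held one, against 7 of 382 (1.83%) among those that fell as far. These windows were read from RefSeq promoters of GRCm38.p6, and a match describes the letters only. To show what was matched, the 120 bases before the start are given 5′ to 3′ on the strand of the gene for Actc1 (chr2:114052876-114052995, minus strand) and Myl3 (chr9:110763558-110763677, plus strand), the CArG box in capitals, and for Mybpc3 (chr2:91118024-91118143, plus strand), the MEF2 site in capitals.
Actc1: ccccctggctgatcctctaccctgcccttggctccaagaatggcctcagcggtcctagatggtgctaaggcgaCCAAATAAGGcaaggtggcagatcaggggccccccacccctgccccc
Myl3: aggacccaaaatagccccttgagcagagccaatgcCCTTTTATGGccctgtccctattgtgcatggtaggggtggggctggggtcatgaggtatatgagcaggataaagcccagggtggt
Mybpc3: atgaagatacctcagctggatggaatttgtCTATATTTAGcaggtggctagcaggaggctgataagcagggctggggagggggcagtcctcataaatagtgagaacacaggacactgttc

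Genes of the Z-disc, M-band and titin scaffold, which hold the filaments in register, were almost all higher in CM. Of 22 tested, 20 rose and 1 fell, with a median of 7.47, and 19 had every CM library above every E library. Mybpc3, the myosin-binding protein whose promoter is shown above, had 870.1, 387 and 2297 CPM in CM and 0.134, 0.169 and 0.275 in E (log2 difference 12.58, SE 0.83, adjusted p = 3.37e-08). Actn2, the actinin of the Z-disc, had 527, 275 and 987 CPM in CM and 0.201, 0.135 and 0.153 in E (log2 difference 11.73, SE 0.71, adjusted p = 1.21e-08). Both were apart from E in every library. Tcap, which anchors titin, had 34.3, 56.2 and 972 CPM in CM and 0.0669, 0 and 0.0611 in E (log2 12.65, and 9.72 without CM 3). CM 3 stood far above CM 1 and CM 2, and E far below all of them. Pdlim5, an actinin-binding protein with the highest mean log2 level of the list over both groups, also ran high in E, with 636, 815 and 402 CPM in CM and 217, 238 and 283 in E (log2 difference 1.33, SE 0.31, adjusted p = 0.00275). Filip1l, a filamin-interacting protein, was the gene of the list that fell, with 61.8, 65.4 and 36.9 CPM in CM and 154, 227 and 287 in E (log2 difference -2.02, SE 0.30, adjusted p = 8.2e-05).

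Genes of the dystrophin complex and of the costamere, which tie the cytoskeleton to the membrane and matrix, were called in both directions. Of 17 genes 16 were tested, and the median log2 difference was 1.77. Among these 8 rose (50%, against 19.5% of all genes) and 4 fell (25%, against 22.5%), so the share that fell was near that of all genes. The melusin gene Itgb1bp2 had 269, 184 and 311 CPM in CM and 0.719, 0.439 and 0.611 in E (log2 difference 8.72, SE 0.55, adjusted p = 1.77e-08). The libraries of CM and E did not overlap for Itgb1bp2, with CM above E. Dmd itself had 124, 171 and 75.8 CPM in CM and 18.4, 23.9 and 35.2 in E (log2 difference 2.26, SE 0.35, adjusted p = 9.49e-05), higher in every CM library. Its relative Utrn went the other way with 95.6, 103 and 69.7 CPM in CM and 163, 158 and 172 in E (log2 difference -0.88, SE 0.26, adjusted p = 0.0127), as did vinculin, Vcl, with 25.4, 21.3 and 48.3 CPM in CM and 281, 177 and 152 in E (log2 difference -2.69, SE 0.44, adjusted p = 0.00019). The laminin chain Lamb2 was called (log2 2.08) with overlapping groups. Without CM 3 the log2 difference was 0.18 (adjusted p = 0.838), and the call also ended without E 2 (adjusted p = 0.155) and without E 3 (adjusted p = 0.138). Dag1, Sgcd, Sntb1 and Lama2 did not pass, at log2 0.77, 0.56, 1.45 and 0.98.

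Calcium handling and excitation genes were higher in CM as a rule. Of 22 genes of the T-tubule and calcium release unit 19 rose and 1 fell (median 4.22), and of 23 ion channel and pump genes 21 were tested, 20 rose and 0 fell (median 5.71). Atp2a2 had 11612, 12781 and 7171 CPM in CM and 251, 218 and 299 in E (log2 difference 5.36, SE 0.33, adjusted p = 1.23e-08), and was well expressed in E too. Its inhibitor Pln had 8651, 10605 and 4606 CPM in CM and 1.44, 1.69 and 5.26 in E (log2 difference 11.48, SE 0.66, adjusted p = 8.1e-09), and the libraries of both genes kept clear of E. By annotation 64.7% of the Pln exon bases lie under another gene on the opposite strand, and whether counting used strand is not given in the sources used here. Reads from both strands therefore cannot be told apart. Smaller shares are covered from the opposite strand in Hoxa11 (35%), Mb (31.9%), Kcnj3 (31.1%), Cdkn1c (30.6%), Hoxb2 (27.3%), Trim54 (26.6%) and Vcl (25.5%). Casq2, which stores calcium in the reticulum, had 2140.1, 1773 and 1054 CPM in CM and 0.535, 0.845 and 1.44 in E (log2 difference 10.80, SE 0.55, adjusted p = 2.99e-09). Trdn, which holds it at the release channel, had 438, 578 and 256 CPM in CM and 0.0836, 0.135 and 0.367 in E (log2 difference 11.12, SE 0.59, adjusted p = 3.98e-09). For Casq2 and Trdn the groups were apart, CM above E in all libraries. Hrc, a histidine-rich calcium binder of the same store, had 1100.4, 481 and 1086 CPM in CM and 0.0669, 0.304 and 0.397 in E (log2 11.83). The exception was Bin1, a membrane-bending protein used in T-tubules and in other cells, with 1.71, 1.21 and 4.64 CPM in CM and 45.8, 21.7 and 5.93 in E (log2 difference -3.32, SE 0.85, adjusted p = 0.00565). All CM libraries lay below E, CM 3 and E 3 being close, and the call of Bin1 was lost in at least 1 alternative.

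Kcnip2, a subunit of the transient outward potassium channel, had 78.3, 70.0 and 121 CPM in CM and 0.0669, 0 and 0 in E, 4 reads in all (log2 11.22). The inward rectifier Kcnj3 had 136, 195 and 72.5 CPM in CM and 0.0669, 0.101 and 0.0611 in E (log2 difference 10.68, SE 0.63, adjusted p = 9.14e-09). CM lay above E in every library for Kcnip2 and Kcnj3.

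Junction genes of the intercalated disc were mostly higher in CM. Of 16 listed 15 were tested, 12 rose and 0 fell, with a median of 4.96. Dsp, which links desmosomes to filaments, had 557, 546 and 575 CPM in CM and 0.97, 1.08 and 1.01 in E, a 546-fold rise (adjusted p = 6.81e-10), with little spread within either group. The desmosomal cadherin Dsg2 had 102, 118 and 70.1 CPM in CM and 0.0502, 0.0338 and 0.0917 in E (log2 difference 10.54, SE 0.56, adjusted p = 3.98e-09). The catenin Ctnna3 had 36.2, 27.2 and 16.1 CPM in CM and 0.0669, 0.135 and 0.0611 in E (log2 difference 8.18, SE 0.68, adjusted p = 2.8e-07). No library of either group crossed into the other for Dsp, Dsg2 and Ctnna3, CM being above E. Gja1, connexin 43, had 636, 749 and 425 CPM in CM and 138, 132 and 225 in E (log2 difference 1.87, SE 0.31, adjusted p = 0.000171), so that E also expressed it. N-cadherin, Cdh2, had 181, 184 and 178 CPM in CM and 138, 139 and 123 in E and was not called (log2 difference 0.44, SE 0.27, adjusted p = 0.203), although every CM library lay above every E library. Plakoglobin, Jup, had 9.07, 10.2 and 105 CPM in CM and 16.4, 5.27 and 2.81 in E, and its call (log2 2.33) was lost without CM 3 (log2 0.24, adjusted p = 0.799), without E 2 (adjusted p = 0.141) and without E 3 (adjusted p = 0.134).

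Energy genes were higher in CM in the mitochondrial genome and in the nucleus. Reads from the mitochondrial genome were 55.0%, 59.9% and 40.0% of gene reads in CM and 3.65%, 6.35% and 7.36% in E, which is 51.6% ± 10.4 against 5.79% ± 1.92 (SD, n = 3 each, exact two-sided permutation p = 0.1, the smallest that 3 against 3 allows). Of 13 mitochondrial mRNA genes 10 were tested and all of these rose, with a median of 4.30. The cytochrome b gene mt-Cytb had 163335, 236778 and 81286 CPM in CM and 4674, 7643 and 11126 in E (log2 difference 4.36, SE 0.52, adjusted p = 1.03e-05). The cytochrome oxidase gene mt-Co1 had 123716, 137241 and 58361 CPM in CM and 4394, 6359.9 and 8148 in E (log2 difference 4.08, SE 0.41, adjusted p = 1.86e-06). Every CM library was above every E library in both. The gene mt-Co2 held only 5.43, 5.54 and 4.81 CPM in CM and 0.151, 0.439 and 0.183 in E, and mt-Nd3, mt-Nd4l and mt-Atp8 had at most 5 reads in CM and 3 in E. Reads that align to several places were not counted, so these counts are not read as levels.

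All 25 tested genes of 26 for fatty acid oxidation rose, with a median of 4.04, as did 26 of 27 of pyruvate dehydrogenase and the tricarboxylic acid cycle (median 3.35) and 16 of 18 of ketone body and branched-chain amino acid oxidation (median 2.69). Lpl, the lipase that frees fatty acids at the vessel wall, had 6523, 8494 and 3879.9 CPM in CM and 76.1, 71.3 and 74.8 in E (log2 difference 6.41, SE 0.38, adjusted p = 1.11e-08). Cd36, which takes them up, had 1619, 2110.1 and 909 CPM in CM and 1.74, 2.13 and 2.6 in E (log2 difference 9.49, SE 0.56, adjusted p = 1.01e-08). In Lpl and Cd36 each CM library was above each E library. Acsl1, which activates fatty acids to acyl-CoA, had 749, 641 and 534 CPM in CM and 8.91, 9.43 and 8.38 in E (log2 difference 6.17, SE 0.35, adjusted p = 6.47e-09). The lipid droplet protein Plin5 had 51.1, 58.3 and 56.9 CPM in CM and 0.1, 0.0676 and 0.122 in E (log2 difference 9.04, SE 0.74, adjusted p = 2.53e-07). Groups were far apart in all 4 genes, and CM 3 was the lowest CM library for Lpl, Cd36 and Acsl1. Cpt1b, the muscle form of the mitochondrial entry enzyme, had 94 reads in CM, mostly in CM 3, and was not tested; 81.4% of its exon bases are shared with another annotated gene on the same strand. The liver form Cpt1a did not pass (log2 difference -0.77, SE 0.61, adjusted p = 0.334), with every CM library below every E library.

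In the cycle, succinate dehydrogenase Sdha had 1576, 1489 and 1101 CPM in CM and 167, 147 and 119 in E (log2 difference 3.27, SE 0.32, adjusted p = 1.57e-06). The pyruvate carrier Mpc2 had 190.2, 380.2 and 175 CPM in CM and 7.94, 8.55 and 10.5 in E (log2 difference 4.78, SE 0.44, adjusted p = 7.98e-07). The pyruvate dehydrogenase kinases, which switch that enzyme off, went in different directions. Pdk4 had 237, 254 and 146 CPM in CM and 8.88, 9.3 and 12.9 in E (log2 difference 4.36, SE 0.45, adjusted p = 2.71e-06). Pdk2 had 36.6, 19.5 and 205 CPM in CM and 3.46, 1.25 and 0.336 in E (log2 difference 5.66, SE 0.95, adjusted p = 0.000223), with 4.04 without CM 3. Pdk3 was the gene of the list that fell, with 3.2, 4.03 and 1.72 CPM in CM and 29.6, 48.3 and 56.3 in E (log2 difference -3.88, SE 0.54, adjusted p = 4.09e-05). The libraries of CM and E did not overlap for Pdk4 and Pdk2, with CM above E; Pdk3 was below E throughout. The ketone body enzyme Oxct1 had 1948, 2047 and 1012 CPM in CM and 162, 173 and 248 in E (log2 difference 3.10, SE 0.33, adjusted p = 4.04e-06). The valine catabolism gene Aldh6a1 had 195, 257 and 114 CPM in CM and 9.68, 12 and 13.9 in E (log2 difference 3.99, SE 0.35, adjusted p = 5.03e-07). Bdh1 and Bcat2 were the genes of that list that did not pass, at log2 0.90 and 1.30.

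Among isoenzymes of muscle and of other tissues, the muscle forms named below rose, and some forms of other tissues were called higher as well. Of 36 listed 34 were tested, 21 rose and 3 fell (median 2.77), with 1 falling without CM 1 or without CM 2. The mitochondrial creatine kinase Ckmt2 was even in CM, with 1174, 993 and 1088 CPM in CM and 0.134, 0.203 and 0.489 in E (log2 difference 11.97, SE 0.60, adjusted p = 2.76e-09). The cytosolic muscle form Ckm had 35.8, 71.4 and 1138 CPM in CM, with CM 3 far above CM 1 and CM 2, against 3 reads in E (adjusted p = 8.34e-06). Myoglobin, Mb, had 1915, 1929.7 and 9878 CPM in CM and 0.569, 0.778 and 0.978 in E (log2 difference 12.53, SE 0.98, adjusted p = 1.66e-07), with 11.29 without CM 3. For Ckmt2, Ckm and Mb the groups were apart, CM above E in all libraries. Of the glucose transporters, the insulin-responsive Slc2a4 had 128, 87.4 and 314 CPM in CM and 0.234, 0.237 and 0.0611 in E (log2 difference 9.86, SE 0.78, adjusted p = 1.94e-07). The common Slc2a1 had 3.42, 3.12 and 7.04 CPM in CM and 30.7, 18.7 and 8.1 in E (log2 difference -2.10, SE 0.64, adjusted p = 0.015), with no overlap in either. Slc2a1 was not called without CM 1, CM 2 or E 1 (adjusted p = 0.0684, 0.0594 and 0.0658). Acetyl-CoA carboxylase changed in the same way. Acacb, which sits at mitochondria, had 50.7, 38.9 and 149 CPM in CM and 0.803, 0.169 and 0.214 in E (log2 difference 7.55, SE 1.08, adjusted p = 5.4e-05). Acaca, of fatty acid synthesis, had 2.68, 1.61 and 2.06 CPM in CM and 18.3, 16.6 and 21 in E (log2 difference -3.13, SE 0.55, adjusted p = 0.000288). The lactate dehydrogenase Ldhb had 332, 275 and 536 CPM in CM and 12.5, 4.46 and 3.27 in E (log2 difference 5.81, SE 0.58, adjusted p = 1.71e-06), while Ldha, with 210.3, 202 and 268 CPM in CM and 348, 182 and 161 in E, overlapped between the groups (log2 difference -0.02, SE 0.34, adjusted p = 0.969). Cox6a2, Cox7a1 and Cox8b, muscle subunits of cytochrome oxidase, rose by log2 11.23, 10.68 and 11.60, and by 8.18, 8.80 and 10.58 without CM 3; their common partners Cox6a1 and Cox8a did not pass (log2 0.21 and 0.79).

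Heart transcription factors were higher in CM. Of 27 listed 25 were tested, 22 rose and 1 fell, with a median of 5.18. Smyd1, a muscle methyltransferase, had 788, 748 and 446 CPM in CM and 0.301, 0.237 and 0.489 in E (log2 difference 10.89, SE 0.51, adjusted p = 1.87e-09). Ppargc1a, the coactivator of mitochondrial genes, had 174, 204 and 99.5 CPM in CM and 0.134, 0.203 and 0.275 in E (log2 difference 9.61, SE 0.52, adjusted p = 4.38e-09). Irx4, of the ventricle, had 9.44, 10.3 and 27.3 CPM in CM, at least 540.5-fold more than E, which had no read and was set at 3 pooled over its libraries. CM lay above E in every library for Smyd1, Ppargc1a and Irx4. The estrogen-related receptor Esrrb had 10.6, 9.26 and 14.1 CPM in CM against 1 read in E (adjusted p = 2.18e-06). Tead1, the partner of the Hippo coactivators, was the gene that fell, with 199, 225 and 139.7 CPM in CM and 336, 410.2 and 414 in E (log2 difference -1.04, SE 0.28, adjusted p = 0.00672), so that both groups expressed it well. The call of Tead1 was lost in at least 1 alternative. Nkx2-5 was not tested because of low counts, and is named for its values of 0.45, 1.61 and 19.1 CPM in CM, without any read in E.

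Muscle chaperones and ubiquitin ligases, which keep sarcomere proteins folded and turned over, had a median log2 difference of 7.51. Of 24 listed 23 were tested, 22 rose and 0 fell. The ring finger ligases Trim54 and Trim55 of the sarcomere had 25.9, 8.86 and 50.7 CPM and 144, 131 and 81.6 CPM in CM. Without a read in E, Trim54 was at least 1018-fold higher, and Trim55 had 5 reads there (log2 11.25). Fbxo40 and Klhl31, adaptors of muscle ubiquitin ligases, had 279.9, 200.3 and 156 CPM and 303, 349 and 153 CPM in CM against 0.0335, 0.101 and 0.122 CPM and 0.0335, 0.0338 and 0.153 CPM in E. The small chaperone Hspb8 had 335, 222 and 319 CPM in CM and 45.2, 42.9 and 32.3 in E (log2 difference 2.86, SE 0.34, adjusted p = 8.15e-06), with fibroblasts expressing it too. Without CM 3 the median of this list was 5.77, and 21 genes were called.

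**Figure D4:**
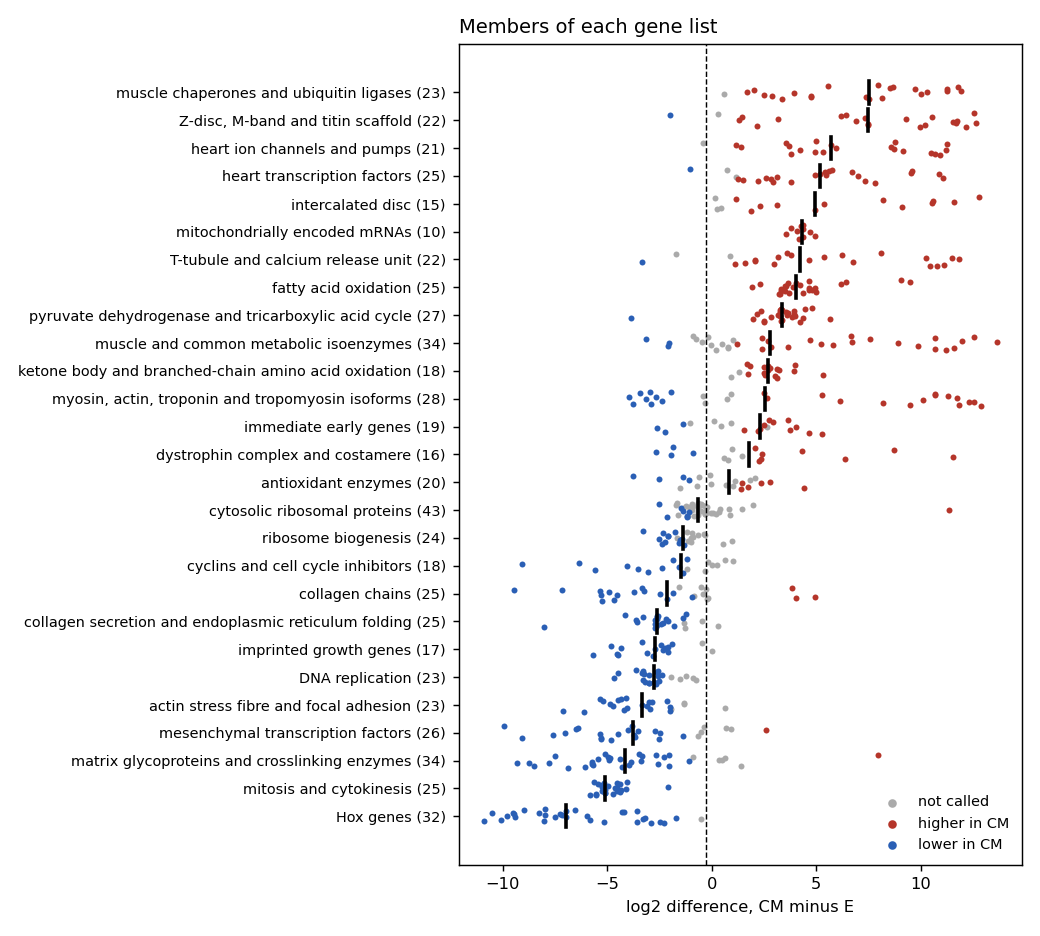
Log2 difference between CM and E (x axis) of each tested member of the gene lists that do not mark a cell type (rows, number tested in brackets), red where called higher, blue where called lower and grey where not called. Black ticks mark list medians, from -6.98 for Hox genes to 7.51 for muscle chaperones and ubiquitin ligases, and the dashed line the median of all genes at -0.26. Genes with no read in a group stand at their fitted value, which is no bound.

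Immediate early genes, which cells switch on within minutes of a stimulus, were mostly higher in CM. Of 20 listed 19 were tested, 11 rose and 3 fell (median 2.33). Fos, a subunit of AP-1, had 78.9, 86.6 and 110.5 CPM in CM and 1.94, 2.87 and 2.32 in E (log2 difference 5.27, SE 0.40, adjusted p = 1.16e-07). Dusp1, which shuts off MAP kinases, had 111, 119.7 and 145 CPM in CM and 13.5, 7.74 and 9.11 in E (log2 difference 3.63, SE 0.36, adjusted p = 1.57e-06). No library of either group crossed into the other for Fos and Dusp1, CM being above E. Egr1, a zinc finger factor, had 97.7, 102 and 189 CPM in CM and 33.6, 24.7 and 18.8 in E (log2 difference 2.33, SE 0.36, adjusted p = 0.000112). Atf3, a stress response factor, had 12, 10.1 and 16.1 CPM in CM and 1.34, 0.71 and 0.245 in E (log2 difference 4.02, SE 0.80, adjusted p = 0.000839). In these 4 genes every CM library was above every E library. Fosl2, Egr2 and Nr4a2 fell, with log2 differences of -2.24, -2.62 and -1.40. Fosl2 had 26.8, 27.2 and 25.3 CPM in CM and 140.2, 119 and 116 in E, and Nr4a2 was not called without CM 1, CM 2, CM 3 or E 2 (adjusted p 0.0605 to 0.113). The labels name no time between isolation and extraction for CM, and its part in these values was not tested. Junb was called with overlapping groups, and without CM 3 its log2 difference went from 3.72 to 0.88 (adjusted p = 0.373), with adjusted p = 0.0554 without E 1 and 0.0555 without E 2.

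Antioxidant enzymes were called at shares near those of all genes. Of 20 tested 6 rose (30%, against 19.5% of all genes) and 4 fell (20%, against 22.5%), with a median of 0.85. With total counts 2 rose and 6 fell (median -0.01), and over the alternatives 2 to 9 rose and 2 to 6 fell. Sod2, of mitochondria, had 361, 373 and 392 CPM in CM and 19.3, 20.4 and 13.9 in E (log2 difference 4.39, SE 0.59, adjusted p = 2.9e-05). The mitochondrial peroxiredoxin Prdx3 had 198, 225 and 161 CPM in CM and 43.5, 36.4 and 35.3 in E (log2 difference 2.34, SE 0.32, adjusted p = 3.6e-05). In Sod2 and Prdx3 each CM library was above each E library. Txnrd1, the cytosolic thioredoxin reductase, had 22.4, 19.7 and 23.4 CPM in CM and 149.8, 115 and 118 in E (log2 difference -2.55, SE 0.34, adjusted p = 2.82e-05). Heme oxygenase, Hmox1, had 3.72, 1.21 and 6.87 CPM in CM and 90.0, 50.5 and 15.3 in E (log2 difference -3.75, SE 0.78, adjusted p = 0.00127). All 4 genes were without overlap. Nqo1 and Prdx1 did not pass, with overlapping groups and log2 differences of -0.06 and -0.02.

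Matrix genes were lower in CM. Of 25 collagen chains tested 3 rose and 15 fell (median -2.12), and of 34 matrix glycoproteins and crosslinking enzymes 1 rose and 28 fell (median -4.14). Col12a1, a fibril-associated collagen (chromosome 9, 79598991 to 79718831, minus strand), had 5.05, 4.83 and 4.81 CPM in CM and 3192, 3436 and 3736 in E (log2 difference -9.46, SE 0.33, adjusted p = 2.72e-10). Col11a1, which nucleates fibrils, had 3.27, 2.92 and 1.72 CPM in CM and 379, 344 and 437 in E (log2 difference -7.16, SE 0.36, adjusted p = 2.76e-09). Col5a2, a minor chain of fibrils, had 42.6, 53.2 and 45.3 CPM in CM and 2002, 1676 and 1897 in E (log2 difference -5.30, SE 0.35, adjusted p = 3.38e-08). Libraries of each group lay close together in these 3 genes. Col3a1, with the highest mean log2 level of the chains over both groups, kept more in CM, with 316, 361 and 336 CPM in CM and 1563, 1328 and 1512 in E (log2 difference -2.12, SE 0.25, adjusted p = 7.35e-06). Chains of basement membrane collagen IV differed. Col4a3 and Col4a4 rose. Col4a5, named after its values were seen, was called lower with overlapping groups (log2 difference -0.93, SE 0.36, adjusted p = 0.0486), and was not called without CM 1, CM 2, E 1 or E 2 (adjusted p = 0.181, 0.105, 0.21 and 0.0616, log2 -0.60 without E 1). Col4a3 had 7.58, 7.85 and 7.56 CPM in CM and 0.251, 0.304 and 0.856 in E (log2 difference 4.03, SE 0.47, adjusted p = 7.47e-06). Col4a4 had 12.9, 18.5 and 13.1 CPM in CM and 0.569, 0.406 and 0.428 in E (log2 difference 4.95, SE 0.49, adjusted p = 1.51e-06). Col15a1, of the basement membrane zone, also rose, with 52.2, 41.1 and 102 CPM in CM and 7.69, 3.92 and 1.77 in E (log2 difference 3.85, SE 0.69, adjusted p = 0.00038). Without CM 3, 20 chains were called lower in place of 15.

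Lox, which crosslinks collagen and elastin, had 8.03, 11.1 and 4.81 CPM in CM and 2352, 2938 and 3595 in E (log2 difference -8.52, SE 0.43, adjusted p = 2.78e-09). Tenascin, Tnc, had 6.32, 4.33 and 3.95 CPM in CM and 2499.7, 2186 and 1619 in E (log2 difference -8.74, SE 0.44, adjusted p = 2.82e-09). The libraries of CM and E did not overlap for Lox and Tnc, with CM below E. Osteopontin, Spp1, had 1.11, 0.906 and 1.37 CPM in CM and 794, 724 and 610.2 in E (log2 difference -9.31, SE 0.38, adjusted p = 6.81e-10). Thrombospondin, Thbs1, had 36, 34.3 and 19.1 CPM in CM and 8486, 7261 and 4409.7 in E (log2 difference -7.81, SE 0.40, adjusted p = 3.03e-09). No CM library of these 4 genes came near E. Sparc, a collagen-binding glycoprotein, had 664, 651 and 664 CPM in CM and 4744, 4094 and 2896 in E (log2 difference -2.57, SE 0.34, adjusted p = 2.96e-05). Timp4, the heart inhibitor of metalloproteinases, was the gene that rose, with 19.2, 19.6 and 17.7 CPM in CM and 0.0502, 0.0676 and 0.0917 in E (log2 difference 7.97, SE 0.71, adjusted p = 1.57e-06). For Timp4 the groups were apart, CM above E in all libraries; Sparc was below E throughout. Genes of collagen secretion and folding were lower too, 21 of 25 falling and 0 rising (median -2.60); the prolyl hydroxylase subunit P4ha3 had 0.297, 0.101 and 0.172 CPM in CM and 48.4, 52.7 and 64.4 in E (log2 difference -8.05, SE 0.62, adjusted p = 1.33e-07). The chaperone Hsp90b1 had 396, 581 and 248 CPM in CM and 1207, 1438 and 2659.7 in E (log2 difference -2.11, SE 0.42, adjusted p = 0.000944).

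Stress fibre and adhesion genes were lower as well, with 19 of 23 falling and 0 rising (median -3.32). Cnn1, calponin of contractile fibres, had 1.11, 0.604 and 1.72 CPM in CM and 193, 143 and 132 in E (log2 difference -7.14, SE 0.54, adjusted p = 1.29e-07). The calcium-binding S100a6 had 7.8, 5.03 and 15.6 CPM in CM and 652, 345 and 134 in E (log2 difference -5.33, SE 0.61, adjusted p = 7.35e-06). CM lay below E in every library for Cnn1 and S100a6. The integrin chain Itgb1 had 474, 571 and 382 CPM in CM and 1773, 1902 and 2633 in E (log2 difference -2.14, SE 0.26, adjusted p = 1.2e-05), well expressed in both. Annexin, Anxa1, had 27.6, 31.2 and 15.1 CPM in CM and 657, 910.4 and 1169.7 in E (log2 difference -5.20, SE 0.37, adjusted p = 7.12e-08). The groups did not overlap in any of these 4 genes. Without CM 3, 22 of the 23 were called lower.

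Of 27 mesenchymal transcription factors 26 were tested, 20 fell and 1 rose (median -3.77). Hmga2, an architectural factor of embryonic cells, had 0.52, 0.101 and 0 CPM in CM and 141, 271 and 362 in E (log2 difference -9.92, SE 0.94, adjusted p = 1.12e-06). Prrx1, of limb and skeletal mesenchyme, had 84.3, 136 and 50.2 CPM in CM and 420.1, 506 and 647 in E (log2 difference -2.54, SE 0.34, adjusted p = 3.04e-05), with the highest mean log2 level of the list and reads in every CM library. Prrx2 had 8.1, 1.96 and 1.9 CPM in E, Osr2 1.89, 1.32 and 1.07 CPM and Foxd1 1.12, 1.05 and 0.642 CPM, and none of them had a read in CM. At 3 reads pooled over CM, Prrx2 was at least 48.2-fold, Osr2 at least 14.9-fold and Foxd1 at least 9.49-fold lower. Meox1 was the gene that rose, with 5.72, 5.03 and 8.07 CPM in CM and 1.62, 0.879 and 0.52 in E (log2 difference 2.62, SE 0.65, adjusted p = 0.0052). With total counts Meox1 was not called.

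Hox genes had the lowest list median, -6.98, or -5.59 with the 9 tested genes that had no read in CM set at 3 pooled reads. Of 39 Hox genes 32 were tested, 31 fell and 0 rose, and every CM library was below every E library in 31. Hoxb9, with the highest CPM of the list in E, had 38.2, 41.2 and 37.6 CPM there and 1 read in CM. Hoxa10 had 20.2, 10.4 and 11.2 CPM in E and no read in CM, at least 150.1-fold lower at 3 pooled reads. No library of either group crossed into the other for Hoxb9 and Hoxa10, CM being below E. Hoxa11 (8.08, 7.94 and 7.95 CPM) and Hoxc10 (10.2, 11 and 10.8 CPM) also had no read in CM and were at least 78-fold and 103-fold lower. Hoxb4 kept the most reads in CM, with 1.78, 2.42 and 1.72 CPM in CM and 6.59, 6.93 and 5.93 in E (log2 difference -1.71, SE 0.64, adjusted p = 0.0444), a call that ended without any 1 of the 6 libraries (adjusted p 0.0527 to 0.135). Hoxb2, named for its value, was the gene tested that did not pass (log2 -0.52). Grouped by paralogue number after these values were seen, numbers 1 to 5 summed to 4.16, 5.43 and 4.12 CPM in CM and 38.0, 33.6 and 36.4 in E, with a median log2 difference of -3.21. Numbers 6 to 9 summed to 0.67, 1.91 and 1.03 CPM in CM and 133, 128 and 122 in E (median -7.48, or -7.00 at the bound), and numbers 10 to 13 to 0.15, 0.20 and 0 CPM in CM and 65.5, 66.3 and 62.6 in E (median -8.61, or -6.06 at the bound). Of 12 genes numbered 10 to 13, 9 had no read in any CM library. The sums were level within E in each class, and most CM reads fell on numbers 1 to 5, 134 reads against 34 and 4.

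Proliferation genes were lower in CM. All 25 tested genes of mitosis and cytokinesis fell (median -5.11), as did 18 of 23 tested genes of 24 for DNA replication (median -2.75) and 11 of 18 cyclins and cell cycle inhibitors (median -1.48); no gene of the 3 lists rose. Cdk1, the mitotic kinase (chromosome 10, 69335146 to 69352938, minus strand), had 2.01, 2.82 and 1.89 CPM in CM and 93, 97 and 123 in E (log2 difference -5.53, SE 0.43, adjusted p = 1.24e-07). Its partner Ccnb2 had 0.817, 0.302 and 0.515 CPM in CM and 33.9, 28.6 and 16.1 in E (log2 difference -5.54, SE 0.64, adjusted p = 7.13e-06). In Cdk1 and Ccnb2 each CM library was below each E library. Tpx2, of the spindle, had 2.82, 3.32 and 1.89 CPM in CM and 126, 122 and 155 in E (log2 difference -5.62, SE 0.41, adjusted p = 6.91e-08). Mki67, a marker of cycling cells, had 18.1, 17.4 and 11.5 CPM in CM and 230.0, 302 and 421 in E (log2 difference -4.33, SE 0.39, adjusted p = 7.37e-07). Every CM library stood below every E library, but CM kept 11.5 to 18.1 CPM of Mki67. Ribonucleotide reductase, which makes deoxynucleotides, fell in both subunits. Rrm1 had 19.8, 25.8 and 14.4 CPM in CM and 169, 164 and 246 in E (log2 difference -3.27, SE 0.34, adjusted p = 2.31e-06). Rrm2 had 4.46, 4.93 and 2.75 CPM in CM and 68, 91.1 and 121 in E (log2 difference -4.51, SE 0.51, adjusted p = 6.04e-06). With limma on the deposited normalized values 7 of the replication genes were called in place of 18.

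The cyclins and inhibitors did not fall evenly. Ccnd2, a D-type cyclin of early G1, had 99.9, 70.6 and 67.7 CPM in CM and 659.6, 742 and 563 in E (log2 difference -3.04, SE 0.29, adjusted p = 1.08e-06). Ccne1, of entry into S phase, had 0.817, 0.503 and 0.344 CPM in CM and 28.5, 35.1 and 21.5 in E (log2 difference -5.59, SE 0.63, adjusted p = 5.74e-06). The inhibitors Cdkn1a and Cdkn2b fell with them. Cdkn1a had 15, 7.95 and 10.3 CPM in CM and 237, 211 and 110.2 in E (log2 difference -4.06, SE 0.37, adjusted p = 7.8e-07). Cdkn2b had 0.446, 0.302 and 0.172 CPM in CM and 24.5, 26.5 and 30.8 in E (log2 difference -6.35, SE 0.96, adjusted p = 8.43e-05). Cdkn2a, a senescence and culture marker, had 5.34, 3.85 and 2.87 CPM in E and no read in CM, at least 42-fold lower at 3 pooled reads. Cdkn1b and Cdkn1c did not pass, at log2 0.23 and 0.03, with overlapping groups. Cdk6 was called (log2 -1.57), but not without any 1 of the 6 libraries (adjusted p 0.0605 to 0.113). Trp53 was called with overlapping groups (log2 -1.84), but not without CM 2, E 1 or E 2 (adjusted p = 0.0722, 0.0761 and 0.0502).

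CCAAT, the element of the NF-Y factor, was in 19 of the 23 promoters of the mitosis list (82.6%) against 33.8% of all RefSeq promoters, over 250 bases and both strands. It was in 38.2% of promoters of genes that fell at least 32-fold and in 31.5% of those that rose as far. Lists of either direction held it often, with 58.3% for DNA replication, which fell, and 53.1% for pyruvate dehydrogenase and the tricarboxylic acid cycle, which rose. TTTGAA, the core of the cell cycle homology region, was in 9 of 23 (39.1%), against 16% of all. Among genes that fell at least 32-fold 16.2% of promoters held TTTGAA, and among those that rose as far 13%. The searches counted exact letters, each motif on its own, so that matches of CCAAT and TTTGAA may share bases. For Cdk1 (chr10:69352913-69353032, minus strand) and Ccnb2 (chr9:70421555-70421674, minus strand), with log2 differences of -5.53 and -5.54, the 120 bases before the start in GRCm38.p6 are given with CCAAT, which reads ATTGG from the other strand, and TTTGAA in capitals. The Cdk1 stretch holds both motifs, and the Ccnb2 stretch holds CCAAT but no TTTGAA.
Cdk1: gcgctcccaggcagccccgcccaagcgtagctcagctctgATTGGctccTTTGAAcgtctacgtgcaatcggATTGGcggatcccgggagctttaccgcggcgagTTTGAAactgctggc
Ccnb2: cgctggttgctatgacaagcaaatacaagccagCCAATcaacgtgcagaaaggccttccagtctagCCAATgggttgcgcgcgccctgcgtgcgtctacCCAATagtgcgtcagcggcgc

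Imprinted growth genes, active in the embryo and turned down after birth, fell in 15 of the 17 tested of 18 and rose in 0 (median -2.74). H19, a non-coding RNA, had 18.2, 15.2 and 35.4 CPM in CM and 963, 386 and 207 in E (log2 difference -4.51, SE 0.64, adjusted p = 5.05e-05). Meg3, another imprinted RNA, had 21, 21.8 and 23.7 CPM in CM and 589, 536 and 406 in E (log2 difference -4.52, SE 0.35, adjusted p = 1.52e-07). Igf2 had 93, 99.4 and 74.7 CPM in CM and 569, 649 and 651 in E (log2 difference -2.81, SE 0.26, adjusted p = 7.87e-07), though 64.6% of its exon bases are shared with another annotated gene. The libraries of CM and E did not overlap for H19, Meg3 and Igf2, with CM below E. Peg3, a zinc finger gene, had 35.7, 36.7 and 19.4 CPM in CM and 244, 262 and 279 in E (log2 difference -3.09, SE 0.32, adjusted p = 2.16e-06). Grb10, an adaptor that restrains growth signalling, had 118, 115 and 94 CPM in CM and 663, 553 and 421 in E (log2 difference -2.32, SE 0.28, adjusted p = 1.19e-05). Cdkn1c and Gnas did not pass, at log2 0.03 and -0.45. For the called genes of this list every CM library was below every E library.

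Ribosome biogenesis genes fell in part, and few ribosomal protein genes were called. Of 24 ribosome biogenesis genes 12 fell and 0 rose (median -1.39), or 6 with limma and 7 when a difference of at least 2-fold was tested, among them Npm1, a nucleolar chaperone, with 73.9, 120.3 and 41.1 CPM in CM and 231, 339.6 and 649 in E (log2 difference -2.37, SE 0.42, adjusted p = 0.000313). Myc, which drives the program, had 1.63, 0.302 and 2.58 CPM in CM and 14.5, 15.6 and 13.8 in E (log2 difference -3.31, SE 0.76, adjusted p = 0.00261). Of 44 cytosolic ribosomal proteins 43 were tested (median -0.66). Among these 7 fell (16.3%, against 22.5% of all genes) and 1 rose (2.33%, against 19.5%). Without single libraries the number that fell was 4, 2 and 17 (without CM 1, 2 and 3) and 4, 4 and 10 (without E 1, 2 and 3). Many of these genes have near-identical copies elsewhere in the genome, so their counts are uncertain. The riser was Rpl3l, the muscle version of Rpl3, with 88.6, 56.7 and 173 CPM in CM and 0.0335, 0.0338 and 0.0306 in E (log2 difference 11.37, SE 0.77, adjusted p = 3.9e-08). Rpl3 had 3.64, 3.02 and 5.15 CPM in CM and 34.3, 10.5 and 7.09 in E (log2 difference -2.14, SE 0.70, adjusted p = 0.0225), so the pair moved in opposite directions without overlap in either. Rpl3 was not called without CM 1, CM 2 or E 1 (adjusted p = 0.084, 0.0774 and 0.178, log2 -1.27 without E 1).

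Some genes had reads on one side only, 275 with no read in E and a read in every CM library, and 1162 with no read in CM and a read in every E library. The E libraries held more gene reads, and 90 and 208 of these genes passed the filter for testing. Tecrl, an enzyme linked to heart rhythm, had 94.5, 117 and 44.8 CPM in CM, and Galnt15, a glycosyltransferase, 39, 40.5 and 27.3 CPM. With E at 3 pooled reads they were at least 3759-fold and 1513-fold higher. Lrrc10, of the intercalated disc list, had 40.0, 22.5 and 92.4 CPM (at least 1811-fold), Asb18 11.9, 10.3 and 11.7 CPM (at least 459.7-fold) and Bmp10, a growth factor of the heart, 12.2, 8.76 and 9.45 CPM (at least 426-fold). The carbonic anhydrase Car4 (14.9, 12.1 and 16 CPM) and the olfactory receptor Olfr558 (19.5, 25.8 and 9.28 CPM) were in the same set. On the other side Nipal1 had 11.2, 17.9 and 27.5 CPM in E and Cpa6 13.3, 13.9 and 13.1 CPM, both with no read in CM and chosen after these values were seen. They were at least 167-fold and 131-fold lower.

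The 20 largest falls included several genes outside the lists. The BMP antagonist Grem1 had 1.04, 1.81 and 0.859 CPM in CM and 517, 738 and 1204 in E (log2 difference -9.34, SE 0.47, adjusted p = 2.76e-09). Crabp1, which binds retinoic acid, had 0.223, 0.201 and 0.172 CPM in CM and 233, 144 and 24.3 in E (log2 difference -9.31, SE 0.96, adjusted p = 2.53e-06). These genes were below E in every CM library. Cemip, of hyaluronan breakdown, had 0.595, 0.201 and 0.687 CPM in CM and 285, 209 and 172 in E (log2 difference -8.83, SE 0.47, adjusted p = 3.98e-09). Tenomodulin, Tnmd, of tendon cells, had 0.149, 0.201 and 0.687 CPM in CM and 101, 109 and 101 in E (log2 difference -8.43, SE 0.78, adjusted p = 8.81e-07). No CM library of these 4 genes came near E. The serotonin receptor Htr1b had 33.7, 45 and 67.6 CPM in E, the homeobox gene Emx2 20.3, 25.5 and 30.5 CPM and the chemokine Cxcl5 21.2, 25.2 and 29.7 CPM, and each had only 1 or 2 reads in all of CM.

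Markers of other heart cells were present in CM. Of 15 endothelial markers 13 were tested and all of these were higher (median 6.31). The list summed to 1948, 1187 and 1733 CPM in CM and 56.1, 48.6 and 42.2 in E. Pecam1, a junction protein of vessels, had 119.9, 59.6 and 141 CPM in CM and 0.0836, 0.0676 and 0.245 in E (log2 difference 9.62, SE 0.70, adjusted p = 7.67e-08). Fabp4, a fatty acid binding protein of capillaries and fat, had 1131, 513 and 757 CPM in CM and 13.9, 9.16 and 7.15 in E (log2 difference 6.31, SE 0.42, adjusted p = 3.78e-08). Of 15 macrophage markers 13 were higher (median 3.59), with sums of 245, 214 and 287 CPM in CM and 45.2, 36.9 and 18.6 in E; Cd163 had 19.7, 16.6 and 13.7 CPM in CM and 1 read in E, and the mannose receptor Mrc1 51.3, 64.3 and 25.3 CPM in CM and 2.78, 3.75 and 4.28 in E (log2 difference 3.71, SE 0.48, adjusted p = 2.26e-05). Both lists were above E in all CM libraries. Summed markers of lymphocytes and granulocytes reached 4.53, 4.43 and 1.72 CPM in CM and at most 0.20 in E, with Cd4 higher (40 reads in CM and 1 in E, adjusted p = 0.000244) and Cd3e, Cd8a and Nkg7 at 0 to 2 reads in CM. Red cell genes summed to 18.1, 23.0 and 23.0 CPM in CM, mostly Hbb-bs, with 16.3, 20.8 and 16.5 CPM there and no read in E, and 2 of the 3 tested of 6 were higher. The part of these cells in the results for CM was not tested; Lpl, Cd36 and Col15a1 are examples of genes that such cells can also express.

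Of 13 smooth muscle and pericyte markers 6 rose (46.2%, against 19.5% of all genes) and 3 fell (23.1%, against 22.5%). Their median was 1.66, and -0.41 without CM 3. They overlapped in sum, with 1568, 1730 and 2032 CPM in CM and 3927, 2398 and 672 in E: Rgs5 had 958, 1220.2 and 473 CPM in CM and 4.05, 6.22 and 11.4 in E (log2 difference 6.94, SE 0.77, adjusted p = 5.4e-06), while Acta2 and Cnn1 fell as given above. Markers of adult heart fibroblasts lay at 995, 898 and 1095 CPM in CM and 959, 798 and 591 in E, with 3 higher, 2 lower and 6 not passing of 11 tested from 12. These shares, 27.3% higher and 18.2% lower, are near the 19.5% and 22.5% of all genes. The lower count was 1 without CM 1, CM 2, E 1 or E 2, and the higher count was 2 with total counts, 5 with the GC correction or the CM and E libraries only, and 7 with DESeq2. Dcn, a proteoglycan, had 472, 362 and 269 CPM in CM and 266, 325 and 192 in E (log2 difference 0.50, SE 0.29, adjusted p = 0.19). The receptor Pdgfra had 38.6, 41.2 and 25.6 CPM in CM and 186, 154 and 139.9 in E (log2 difference -2.19, SE 0.29, adjusted p = 2.77e-05). Of 12 atrial and conduction markers 8 rose (66.7%, against 19.5% of all genes) and 3 fell (25%, against 22.5%). The 12 include Myl7, Myl4, Kcnj3 and Bmp10, given above. Nppa, the atrial hormone, had 137, 137 and 202 CPM in CM and 0.151, 0.203 and 0.0917 in E (adjusted p = 2.61e-08), with 61.5% of its exon bases under a gene on the opposite strand, and the sarcoplasmic regulator Sln 17.2, 11 and 27 CPM in CM against 1 read in E. Shox2 and Isl1, of the sinus node and also of limb or progenitor cells, were lower, Shox2 with 1.19, 1.61 and 0.515 CPM in CM and 72.9, 97.1 and 128 in E (log2 difference -6.42, SE 0.49, adjusted p = 1.24e-07). Of 10 fat and nerve sheath markers, with sums of 11.4, 8.76 and 7.04 CPM in CM and 13.7, 11.1 and 6.18 in E, 3 were tested and S100b fell (log2 -4.02). Adipoq, Plin1, Cfd, Lep and Cidec had 0 to 3 reads in CM.

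**Figure D5:**
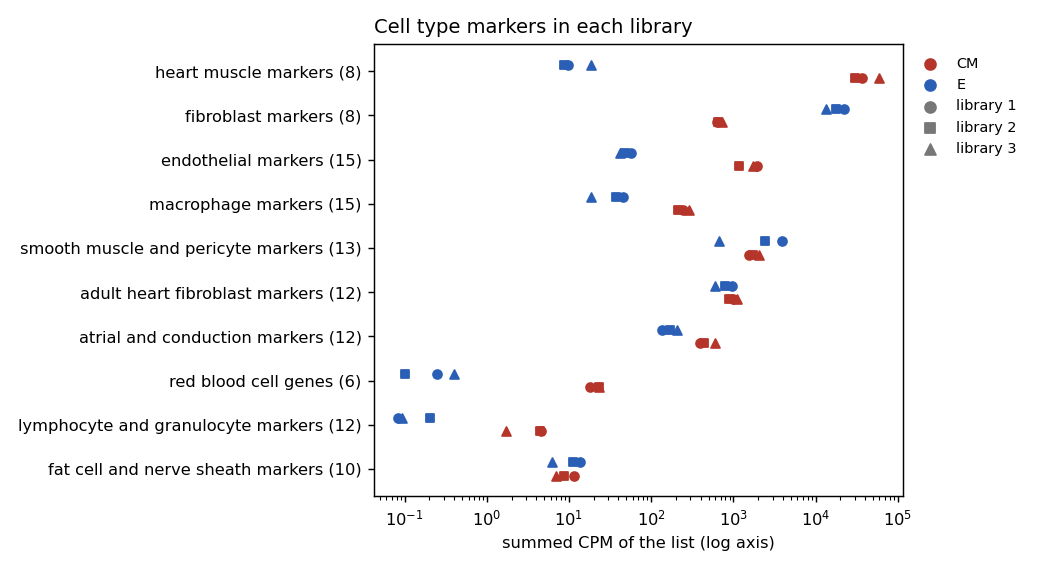
Summed CPM (x axis, log scale) of cell type marker lists (rows, number of genes in brackets) in each CM (red) and E (blue) library, with symbols for libraries 1 to 3. Heart muscle markers lie at 30042 to 58815 CPM in CM and 8.62 to 18.3 in E, and endothelial markers at 1187 to 1948 against 42.2 to 56.1.

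Sex-linked genes differed between the groups. Xist, the RNA of the inactive X chromosome, had 1.41, 2.92 and 0.859 CPM in CM and 613, 793 and 1200.2 in E (log2 difference -8.93, SE 0.49, adjusted p = 5.28e-09). Of the Y chromosome genes, Eif2s3y was higher, with 109, 158 and 55.5 CPM in CM and 20.7, 20.6 and 37.3 in E (log2 difference 2.04, SE 0.38, adjusted p = 0.000534), and Ddx3y, Kdm5d and Uty did not pass, at log2 0.11, 0.62 and 0.97. With total counts Eif2s3y was not called. Ddx3y had 79.7, 105 and 41.1 CPM in CM and 46.8, 63 and 99 in E, so Y chromosome reads were in every library. E therefore held both Xist and Y chromosome transcripts, and CM almost only the latter. The labels give no sex. Its part in other differences was not tested and cannot be told apart from that of cell type, age and time in culture.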

How the data were processed

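RNA from C57BL/6 mouse cells was extracted with TRIzol and made into libraries with a TruSeq Stranded RNA LT kit, per the labels' protocols. The submitters' processing notes name Bowtie2 2.0.6, HTSeq, DESeq and mm10. The strand setting and annotation of the counting were not stated in any source used here. The authors deposited whole-number read counts per gene, 1 file per library, and a table of normalized signal in which the same counts are divided by size factors. All values of that table gave back whole reads within 0.001 that sum to the deposited totals, and only the totals were compared. The count test was run on the count files alone. Of 43629 gene IDs 42462 matched GENCODE M21 (GRCm38), and lines for reads that name no gene were left out of library sizes (reads in no feature, 9.11% of uniquely aligned reads on average in CM and 14.2% in E).

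Counts of all 12 libraries were filtered with filterByExpr (minimum count 10, minimum total 15), scaled with TMM and fitted with edgeR 4.0.16 in R 4.3.3 by the robust quasi-likelihood test, taking CM minus E, Benjamini-Hochberg adjusted at 0.05. Gene reads ranged from 5120230 to 33552138 over the CM and E libraries, and the precision covers counting and the spread between libraries only. A group of libraries with no read was set at 3 reads pooled over the group. DESeq2 1.42.0 and limma 3.58.1 (on log2 of the deposited normalized values plus 1), other scalings, filters, library sets, thinning and a GC correction were alternatives. In data simulated for CM against E with 14126 genes, only 75, 63 and 51 genes were changed, by 1, 2 and 3 on the log2 scale. The procedure called 2.67%, 28.6% and 52.9% of them, and 3 of its 50 calls were false. The adjusted p-value depends on how many genes change, and 6319 were called in the real data. These shares are therefore not the power of the comparison itself. A gene that did not pass may still differ. Motifs were searched in the 250 bases before RefSeq starts, and 10712 of the tested genes had a promoter.

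The lists and members were chosen with earlier results of these data known. Genes could be named as members of the isoform, isoenzyme, marker and short lists (at most 20 tested), as the member of a longer list with the highest mean level or the 4 largest changes in each direction, as the 20 largest changes in each direction without overlap and with a mean from 10 CPM up, or as the 10 best expressed genes with no read in E. Any other gene named is said to be chosen after its values were seen. Libraries with the same number did not deviate together, and the numbers were not taken as pairs. Deviations also followed GC content, so they cannot decide whether the numbers mark pairs. Some genes that the rule allows are not reported here, and list counts include every member.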

Additional observations from a re-analysis of the deposited data

Results flagged for a closer look

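Reads that aligned at more than 1 place were outside the gene counts and made up a larger part of the CM libraries. They were 66.5% ± 5.45 of all alignments in CM and 46.8% ± 1.18 in E (SD, n = 3 each, exact two-sided permutation p = 0.1, the smallest possible). The CM libraries ranged from 60.2% to 69.7% and the E libraries from 45.8% to 48.1%, without overlap. The lowest CM library was CM 3, which also had the lowest share of mitochondrial reads in CM. The genes these reads belong to were not analysed here.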

How the results depend on the processing

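The number of genes called was 6319 and ranged from 4445 to 7798 over the alternatives, within 1.5 times of the number given. Genes higher in CM fell to 1767 and genes lower in CM rose to 6009 with total counts, which scale to totals that include the mitochondrial reads. Genes lower in CM numbered 1929 with limma and 2181 when a difference of at least 2-fold was tested with glmTreat, and the cause was not tested for limma. The share of calls higher in CM was 57.9% with DESeq2 and 59.1% with limma. Leaving out each library in turn gave 5234 to 6391 calls. Deviations of CM and E libraries with the same number correlated at -0.49, -0.17 and -0.72, which cannot decide whether the numbers mark pairs because deviations followed GC content. The fit with the replicate number as a block gave 5338 calls. The GC correction and the correction within groups, both added after seeing the data, gave 7661 and 7768 calls. The mitochondrial share differed by 45.8 points in all and by 44.4 points over mRNA genes only. Of the 199 named genes that were called, 24 lost the call in at least 1 alternative, and no value changed sign in a call. The lowest counts, CM 3 with 5120230 gene reads among them, set the limit for rare transcripts, and genes under the filter could not be tested.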

Other observations

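Further genes of large change belong to none of the lists. Adprhl1, an ADP-ribosylhydrolase-like protein of heart, had 154, 98 and 344 CPM in CM and 2 reads in E (adjusted p = 3.04e-08). Myo18b, an unconventional myosin of striated muscle, had 37.5, 21.1 and 221 CPM in CM and 0.0335, 0 and 0 in E (adjusted p = 2.38e-06). A pair of C1q and tumour necrosis factor related proteins changed in opposite directions, C1qtnf9 with 100.1, 103 and 73.7 CPM in CM and 0, 0.0338 and 0.0306 in E and C1qtnf3 with 0.446, 0.503 and 0 CPM in CM and 221, 209 and 295 in E (log2 difference -9.35, adjusted p = 9.01e-09). Among the falls, the enteric actin Actg2 had 0.595, 0.302 and 0.515 CPM in CM and 217, 159 and 60.7 in E (log2 difference -8.24), Cthrc1, a protein of collagen-making cells, 0.297, 0.201 and 0.172 CPM in CM and 72.8, 72.1 and 72.8 in E (log2 difference -8.22), and the pentraxin Ptx3 0.892, 0.604 and 0.859 CPM in CM and 229, 179.9 and 265 in E (log2 difference -8.15). Every adjusted p here is from edgeR, and the groups did not overlap in any of these genes.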
